A study of Mus musculus with 6 samples.

Results

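Carriers that move glucose, lactate and pyruvate across the plasma membrane were followed by their mRNA in mouse fibroblasts with and without TGFβ. The 9 genes are the glucose transporters *Slc2a1*, *Slc2a3*, *Slc2a10* and *Slc2a12*, the monocarboxylate transporters *Slc16a1*, *Slc16a3*, *Slc16a6* and *Slc16a7*, and *Bsg*, which encodes the chaperone basigin. They were taken by gene symbol from a table of 25140 genes, and all 9 had a row and passed the filter on low counts, as did 14334 genes in all. The set was selected on its counts in this same comparison of TGFβ with vehicle, whose results were already known, so its values are a description and carry no test.

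The study asked how transcription changes as fibroblasts turn into myofibroblasts, and 6 RNA-seq libraries were compared here, 3 from cells given vehicle and 3 from cells given 10 ng/mL TGFβ for 24 h. Per the labels, both groups were primary cardiac fibroblasts of adult C57BL/6 hearts at passage 1, grown in DMEM with 25 mM glucose and moved to 1% FBS for 16 h before treatment, and no genetic change is listed for either group. The paper's results describe such cultures as mouse embryonic fibroblasts, and its methods as cardiac fibroblasts, and the methods state a longer time in low serum before treatment than the labels. The vehicle libraries, called Va, Vb and Vc, held 31072338, 29296570 and 29331999 counts, and the TGFβ libraries, called Ta, Tb and Tc, held 27851677, 28894151 and 28641986, and values are always given in this order. All 8 fibroblast markers were detected, 5 of them lower with TGFβ. Their summed levels were 35307 to 40480 CPM (counts brought to one library size) with vehicle and 39603 to 43167 CPM with TGFβ. *Col1a1* (means 19992 and 23484 CPM) and *Col1a2* (13656 and 14967 CPM) made up most of these sums, and neither was among the 5. Of 8 cardiomyocyte markers, 7 had a mean under 1 CPM, with *Tnnt2* as the exception (46.7 CPM with vehicle, 34.0 CPM with TGFβ). Of 6 genes typical of myofibroblasts, 5 were higher with TGFβ, and *Acta2*, which encodes smooth muscle actin, averaged 1333 ± 143.6 CPM in the vehicle and 2717 ± 74.0 CPM in the TGFβ libraries (SD, n = 3 each). These are cultures measured in bulk, so fewer cells of a type and less RNA per cell cannot be told apart.

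Glucose enters most cells by facilitated diffusion through carriers of the SLC2 (GLUT) family, which differ in affinity and in where in the cell they reside. Lactate, pyruvate and ketone bodies cross the membrane together with a proton through the first members of the SLC16 (MCT) family, which run in either direction according to the gradients. MCT1 and MCT4 are carried to the cell surface bound to basigin, and MCT4 is known as the exporter of highly glycolytic cells.

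The sequences upstream of the start sites of the 3 transporters past the threshold described further on are shown first, since these are the genes on which the comparison turned. They were copied from RefSeq (GRCm38.p6), which gave a promoter window for 5 of the 9 genes, and each run holds only bases that no annotated exon covers. The last base shown lies 35 bases before the RefSeq start site for *Slc2a1*, 15 for *Slc16a3* and 1 for *Slc16a1*. All 3 lie on the plus strand. Capitals mark ACGTG and GCGTG, the cores of hypoxia response elements, and CACGTG, the E-box, on either strand, so that GCGTG can appear as CACGC.
*Slc2a1*, chr4:119108495-119108710: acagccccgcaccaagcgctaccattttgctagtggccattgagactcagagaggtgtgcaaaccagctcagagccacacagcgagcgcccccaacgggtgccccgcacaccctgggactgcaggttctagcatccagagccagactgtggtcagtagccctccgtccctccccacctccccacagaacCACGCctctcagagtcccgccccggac
*Slc16a3*, chr11:120948817-120949052: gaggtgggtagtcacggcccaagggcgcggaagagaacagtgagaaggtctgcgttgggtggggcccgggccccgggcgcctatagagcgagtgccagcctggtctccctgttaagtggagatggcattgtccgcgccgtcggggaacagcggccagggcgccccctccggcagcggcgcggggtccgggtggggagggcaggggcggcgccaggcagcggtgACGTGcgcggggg
*Slc16a1*, chr3:104638414-104638663: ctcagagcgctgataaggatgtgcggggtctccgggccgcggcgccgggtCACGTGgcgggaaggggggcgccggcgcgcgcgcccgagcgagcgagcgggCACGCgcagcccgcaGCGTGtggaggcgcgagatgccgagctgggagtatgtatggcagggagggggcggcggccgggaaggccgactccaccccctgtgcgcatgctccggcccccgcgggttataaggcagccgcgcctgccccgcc
The *Slc16a1* run held the E-box and a GCGTG on each strand, and 76.4% of its bases were G or C. One ACGTG stood near the start site in the *Slc16a3* run (73.3% G or C), which also lies inside the span of a longer annotated *Slc16a3* transcript that begins at position 120948480. The *Slc2a1* run (63.9% G or C) held 1 GCGTG core on the minus strand. In the whole windows of 300 bases, ACGTG was found 3 times for *Slc16a1*, 2 times for *Slc16a3* and 1 time each for *Slc2a1* and *Slc2a10*, and 19.6% of all 32851 RefSeq windows held it, both strands searched and CACGTG counted on both. GCGTG was in 32.4% of all windows, CACGTG in 7.15% and CAGACA, a sequence that SMAD proteins can bind, in 21.0%, and CAGACA was found 1 time, in the *Slc16a1* window. The AP-1 sequences TGAGTCA and TGACTCA, which 5.20% of all windows held, were in none of the 5 windows, and the GC box GGGCGG, not capitalised here, was in 35.7% of all windows and in 4 of the 5. These are matches of letters only, and no binding was measured.

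Of the 9 genes, 2 were higher with TGFβ (*Slc2a1* and *Slc16a3*), 1 was lower (*Slc16a1*) and 6 did not pass the threshold, a Benjamini-Hochberg adjusted p under 0.05 in edgeR's quasi-likelihood test over all 14334 genes tested. Over all genes tested, 40.7% passed, 20.5% with higher and 20.1% with lower counts. The groups did not overlap in 6 of the 9 genes, against 53.3% of all genes tested. The median log2 fold change of the 9 genes was 0.11 and that of all genes tested -0.001. Without library Ta 5 of the 9 passed, since *Slc2a12* at -0.93 and *Slc16a6* at 0.84 on the log2 scale then passed as well. Of all genes, 4674 passed without library Ta, against 5828 with all 6 libraries.

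**Figure D1:**
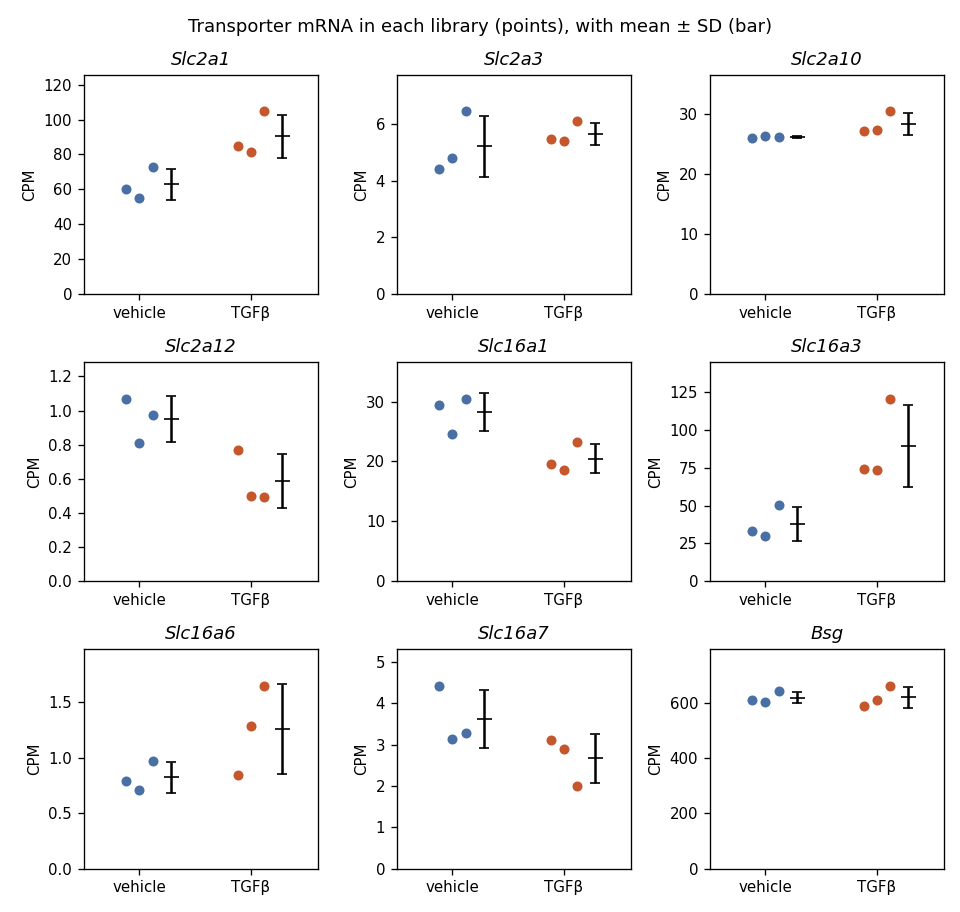
CPM of the 9 transporter genes (one panel each, axes from 0) in the 3 vehicle libraries (blue) and the 3 TGFβ libraries (orange), each library a point in the order of the text and the bar the mean ± SD. *Slc2a1* and *Slc16a3* sit higher and *Slc16a1* lower in all TGFβ libraries, while the points of *Slc2a3*, *Slc16a6* and *Bsg* overlap between the groups.

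Among the glucose carriers, *Slc2a1*, which encodes GLUT1, the widespread carrier of basal glucose uptake, lies on chromosome 4 from 119108711 to 119137983 on the plus strand of GRCm38 (GENCODE M21 annotation). Each library had 1637 to 2986 of its reads. Its level was 60.5, 55.2 and 72.8 CPM with vehicle and 84.8, 81.7 and 104.7 CPM with TGFβ. The lowest TGFβ library was thus above the highest vehicle library, and Vc and Tc stood highest in their groups. The means were 62.8 ± 9.06 and 90.4 ± 12.5 CPM (SD, n = 3 each), which differ by 0.53 on the log2 scale (SE 0.12, 95% interval 0.24 to 0.81).

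*Slc2a3* encodes GLUT3, a carrier of high affinity best known from neurons, and its coding sequence is identical to that of *Slc2a1* at 67.7% of aligned bases, the closest of the 12 pairs aligned within the SLC2 and SLC16 genes. It lies on the minus strand of chromosome 6 (122727809 to 122801640) and was counted far less, with 140 to 192 reads per library. Values of 4.40, 4.79 and 6.44 CPM with vehicle and 5.45, 5.41 and 6.10 CPM with TGFβ overlapped, and library Vc was the highest of all 6. The log2 fold change of 0.12 (SE 0.15, 95% interval -0.24 to 0.48) leaves room for a shift in either direction.

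*Slc2a10* (plus strand, chromosome 2, 165503787 to 165519917) encodes GLUT10, a carrier of internal membranes that is mutated in arterial tortuosity syndrome. Its vehicle libraries were nearly alike, at 26.0, 26.3 and 26.2 CPM, and the TGFβ libraries were at 27.2, 27.3 and 30.4 CPM. Although the groups did not overlap on this scale, the log2 fold change was only 0.11 (SE 0.06, 95% interval -0.02 to 0.24). In TPM (counts per transcript length, scaled to a common total) the groups did overlap, at 29.5 to 30.0 against 28.6 to 33.3 TPM. The length is the same in every library, and TPM leave out the library scaling factors (TMM) that CPM include.

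*Slc2a12* (plus strand, chromosome 10, 22645011 to 22704285), which encodes GLUT12, a carrier described in muscle and fat, was at the edge of detection with 14 to 34 reads per library. Its levels were 1.07, 0.809 and 0.972 CPM with vehicle and 0.768, 0.501 and 0.491 CPM with TGFβ. All TGFβ libraries were below all vehicle libraries, with a log2 fold change of -0.70 (SE 0.25, 95% interval -1.28 to -0.12), without passing the threshold over all genes. Its exons overlap those of *Tbpl1* on the opposite strand, a gene with 6322 counts in all libraries together, and the strand setting of the counting is not given in the sources used here, so reads of the pair may not be fully separated.

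The monocarboxylate carriers held the widest difference of the set. *Slc16a3* encodes MCT4, the low-affinity lactate exporter, and lies on chromosome 11 from 120948480 to 120960868 on the plus strand. Vehicle libraries had 883 to 1513 of its reads and TGFβ libraries 2031 to 3440. Its levels in CPM were 33.5, 29.8 and 50.7 with vehicle and 74.2, 73.4 and 120.7 with TGFβ. The groups stood well apart, and within them Vc and Tc were set off upward from the other libraries. The mean went from 38.0 ± 11.2 CPM (SD, n = 3) to 89.4 ± 27.0 CPM (SD, n = 3), a 2.36-fold difference or 1.24 on the log2 scale (SE 0.25, 95% interval 0.66 to 1.81). Without library Tc the log2 fold change was 0.95 and without library Vc 1.50.

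*Slc16a1* (plus strand, chromosome 3, 104638668 to 104658462) encodes MCT1, the carrier of intermediate affinity that most tissues use for uptake and release. It went the other way. Its levels were 29.5, 24.6 and 30.5 CPM with vehicle and 19.6, 18.6 and 23.2 CPM with TGFβ. Every TGFβ library was below every vehicle library, with means of 28.2 ± 3.14 and 20.5 ± 2.42 CPM (SD, n = 3 each). On the log2 scale the difference was -0.46 (SE 0.11, 95% interval -0.71 to -0.21).

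*Slc16a7* (minus strand, chromosome 10, 125219270 to 125389465) encodes MCT2, the high-affinity pyruvate and lactate carrier known from neurons and testis, and of the SLC16 genes described its coding sequence is the closest to that of *Slc16a1* (62.9% of aligned bases identical). It was low, at 4.43, 3.14 and 3.29 CPM with vehicle and 3.11, 2.90 and 2.00 CPM with TGFβ. The groups only just failed to meet, and the log2 fold change of -0.44 (SE 0.21, 95% interval -0.93 to 0.04) did not pass the threshold.

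*Slc16a6* (minus strand, chromosome 11, 109450855 to 109473598) encodes MCT7, for which ketone bodies and taurine have been described as cargo. With 21 to 47 reads per library, its levels were 0.786, 0.708 and 0.972 CPM with vehicle and 0.841, 1.29 and 1.65 CPM with TGFβ. The lowest TGFβ library fell within the vehicle range, and the log2 fold change was 0.62 (SE 0.28, 95% interval -0.03 to 1.27). Its exons overlap *Amz2* on the opposite strand (6846 counts in all libraries together), and 23.7% of its windows of 75 bases, the read length, also occur in transcripts of other genes, so its values are uncertain.

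*Bsg* (plus strand, chromosome 10, 79704491 to 79711969) encodes basigin (CD147), the partner that carries MCT1 and MCT4 to the surface. It was counted at 612.3, 605.6 and 644.1 CPM with vehicle and 591.0, 612.2 and 663.9 CPM with TGFβ. The groups overlapped fully, with means of 620.7 ± 20.5 and 622.4 ± 37.5 CPM (SD, n = 3 each). On the log2 scale the difference was 0.00 (SE 0.06), with a 95% interval of -0.13 to 0.13, and its sign turned with DESeq2 size factors or upper quartile scaling.

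*Emb* encodes embigin, a relative of basigin that serves as a partner of MCT2 in particular, and is not one of the 9 genes. It was at 20.3, 18.9 and 39.1 CPM with vehicle and at 9.80, 8.52 and 16.9 CPM with TGFβ, so all TGFβ libraries were below all vehicle libraries. *Emb* fell by 1.15 on the log2 scale (SE 0.34, adjusted p = 0.0297 in edgeR's quasi-likelihood test over all genes). *Emb* no longer passed without library Vc (log2 fold change -0.74, edgeR adjusted p = 0.0648), without library Ta (-1.03, adjusted p = 0.106) and without library Tb (-0.96, adjusted p = 0.0969). *Emb* shares 21.5% of its 75-base windows with transcripts of other genes.

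**Figure D2:**
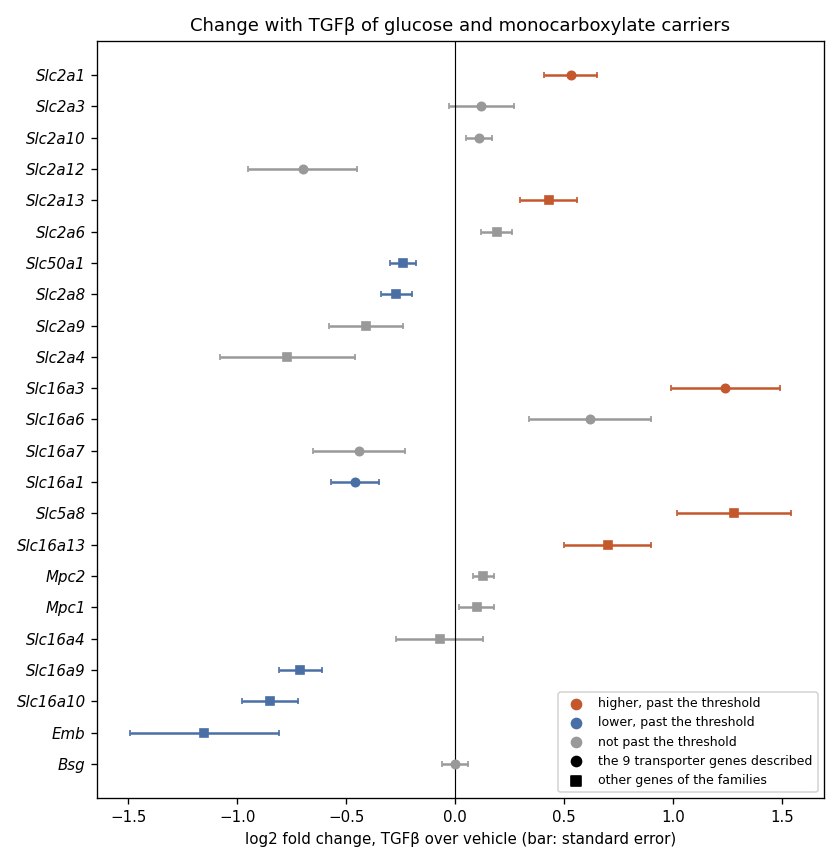
Log2 fold change of TGFβ over vehicle (x axis, bar the standard error) for the 9 genes (circles) and other tested genes of the glucose and monocarboxylate lists (squares), in orange or blue where past the threshold and in grey where not. *Slc16a3* at 1.24 stands furthest to the right of the circles, *Slc2a12* at -0.70 furthest to the left without passing, and *Bsg* lies at 0.00.

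Per transcript length, where levels can be set against each other between genes, *Slc2a1* was the most abundant SLC2 gene in both groups. It was at 72.6 ± 9.95 TPM in the vehicle and 99.7 ± 15.3 TPM in the TGFβ libraries (SD, n = 3 each). *Slc50a1*, a sugar carrier outside this family, was at 118 ± 8.03 TPM in the vehicle and 95.6 ± 3.18 TPM in the TGFβ libraries (SD, n = 3 each). Of the SLC2 genes, *Slc2a10* came second at 29.7 TPM and 30.6 TPM, above the intracellular carriers *Slc2a8* and *Slc2a6*. The *Slc2a10* libraries did not overlap those of its neighbours in the order. *Slc2a3*, at 2.91 TPM with vehicle and 3.02 TPM with TGFβ, overlapped its neighbour above in either group, *Slc2a13* with vehicle and *Slc2a9* with TGFβ. *Slc2a12* was near the bottom at 0.908 TPM and 0.536 TPM, and did not differ beyond the spread from *Slc2a4*, which encodes the insulin-regulated GLUT4. *Slc2a1* made up 44.1, 42.8 and 49.1% of the summed SLC2 level with vehicle and 53.8, 50.9 and 57.3% with TGFβ, shares that did not overlap.

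Among the SLC16 genes described, the distance between *Slc16a3* and *Slc16a1* differed between the groups. With vehicle *Slc16a3* at 28.9 ± 8.29 TPM (SD, n = 3) overlapped *Slc16a1* at 25.8 ± 2.75 TPM (SD, n = 3). With TGFβ *Slc16a3* at 65.1 ± 20.5 TPM (SD, n = 3) was above *Slc16a1* at 17.9 ± 2.42 TPM (SD, n = 3) in every library. *Slc16a7* (1.24 TPM with vehicle, 0.870 TPM with TGFβ) and *Slc16a6* (0.682 TPM and 0.996 TPM) were the lowest of the 4 SLC16 genes described, and overlapped each other only with TGFβ. *Bsg* was far above all of these carriers, at 1386 ± 36.1 TPM in the vehicle and 1326 ± 92.3 TPM in the TGFβ libraries (SD, n = 3 each).

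**Figure D3:**
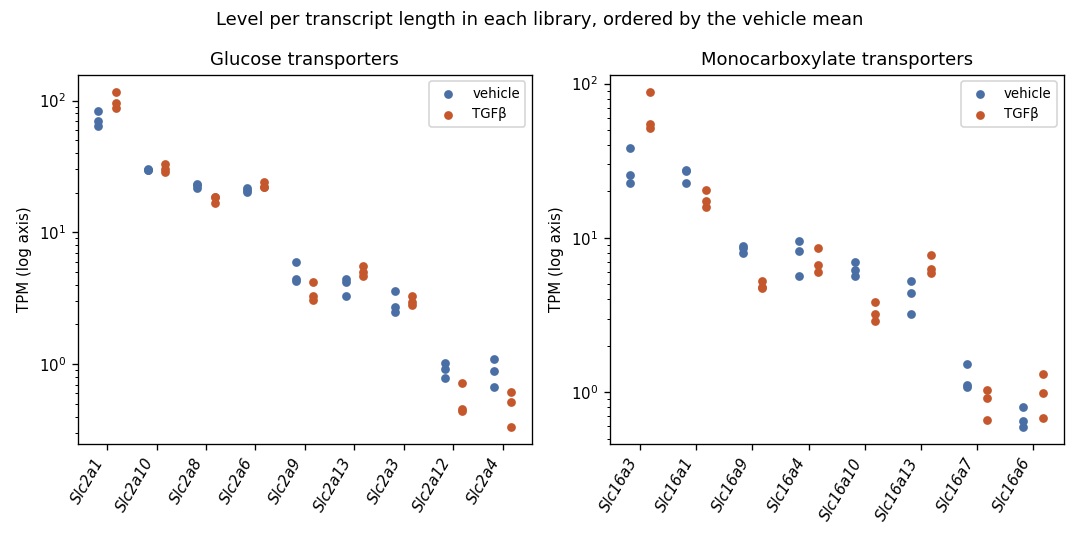
TPM (log axis) in each library of SLC2 genes (left) and SLC16 genes (right), ordered by the vehicle mean, vehicle in blue and TGFβ in orange. Genes of the lowest level, such as *Slc2a2* and *Slc16a14*, are not shown. *Slc2a1* leads the SLC2 genes in both groups, and *Slc16a3* stands beside *Slc16a1* with vehicle and above it with TGFβ.

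Because *Slc16a3* and *Slc16a1* differed in opposite directions, their ratio within each library shows the shift without reference to library size. *Slc16a3* over *Slc16a1* in TPM was 0.944, 1.01 and 1.38 with vehicle and 3.15, 3.28 and 4.32 with TGFβ. The means were 1.11 ± 0.238 and 3.59 ± 0.643 (SD, n = 3 each). Near parity of the mRNAs with vehicle thus stood against a clear excess of *Slc16a3* in each TGFβ library. Of the summed TPM of *Slc16a1*, *Slc16a3* and *Slc16a7*, the carriers of lactate and pyruvate, *Slc16a3* was 47.2, 49.0 and 57.1% with vehicle and 74.9, 75.6 and 80.7% with TGFβ. Their sum was 56.0 ± 10.4 TPM in the vehicle and 83.9 ± 22.7 TPM in the TGFβ libraries (SD, n = 3 each). *Bsg* exceeded this sum 25.2 ± 3.98 times (SD, n = 3) with vehicle and 16.3 ± 2.90 times (SD, n = 3) with TGFβ. *Slc2a1* over *Slc2a10* was 2.37, 2.13 and 2.83 with vehicle and 3.18, 3.05 and 3.51 with TGFβ. These ratios combine genes that were chosen with the results known, and were not tested.

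**Figure D4:**
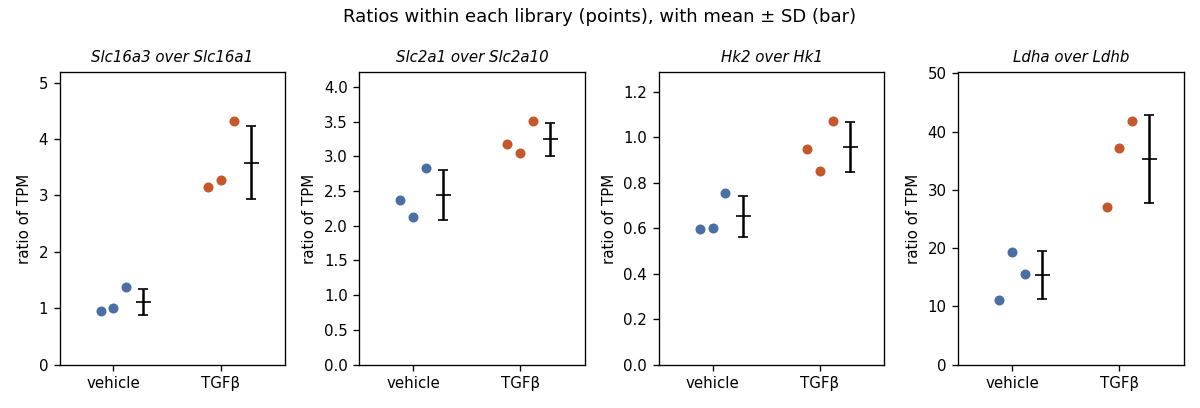
Ratio of TPM within each library (points, axes from 0, bar the mean ± SD) for *Slc16a3* over *Slc16a1*, *Slc2a1* over *Slc2a10*, *Hk2* over *Hk1* and *Ldha* over *Ldhb*, with vehicle (blue) and TGFβ (orange). In each panel all TGFβ libraries lie above all vehicle libraries, and the mean of *Slc16a3* over *Slc16a1* is 1.11 with vehicle and 3.59 with TGFβ.

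Libraries Vc and Tc held the highest CPM of their groups for *Slc2a1*, *Slc2a3*, *Slc16a1*, *Slc16a3*, *Slc16a6* and *Bsg*, and for *Emb*. The same libraries were highest in the summed level of 8 endothelial markers, at 461.8, 528.4 and 716.4 CPM with vehicle and 423.3, 473.9 and 586.3 CPM with TGFβ. They were also highest in the summed level of the leukocyte markers, at 248.2, 259.7 and 357.6 CPM with vehicle and 212.7, 227.6 and 317.5 CPM with TGFβ. The fibroblast markers shared this, at 35307.5, 37546.3 and 40479.8 CPM with vehicle and 39602.5, 41509.4 and 43166.7 CPM with TGFβ. So did the sums of the myofibroblast genes and of the smooth muscle and pericyte markers. Libraries Va and Ta were highest in the sums of the mesothelial, Schwann cell and cardiomyocyte markers. Single markers did not all follow these sums. *Lyz2* made up most of the leukocyte sums, at 201.2, 206.2 and 289.9 CPM with vehicle and 172.1, 175.5 and 257.9 CPM with TGFβ. *Ptprc* was highest in Tb of the TGFβ libraries (2.52, 3.47 and 2.98 CPM). Endothelial *Tek* was lowest in Vc and Tc, at 79.7, 92.7 and 74.6 CPM with vehicle and 94.8, 115 and 83.8 CPM with TGFβ. None of the 8 endothelial markers and 1 of 6 tested leukocyte markers (*Cd14*, lower) passed the threshold between the groups, while *Cd3e* was not in the table used here and *Cd79a* was at 0 in 4 of 6 libraries. The mean summed level of the endothelial and of the leukocyte markers was lower with TGFβ, but the libraries of the groups overlapped in both. The part of these other cells in the spread of the transporter values was not tested. The 8 smooth muscle and pericyte markers summed to 348.2 to 428.5 CPM with vehicle and 231.2 to 310.4 CPM with TGFβ. *Cspg4* was higher (means 19.5 and 53.3 CPM), *Notch3* was lower (206.6 and 57.3 CPM) and 6 did not pass the threshold. The lower sum with TGFβ thus rests on *Notch3*. The part of these markers in the transporter values was not tested. None of the tested markers of the remaining types passed, with mesothelial markers at summed levels of 24.7 to 83.8 CPM with vehicle and 16.2 to 41.8 CPM with TGFβ, Schwann cell markers at 4.32 to 5.78 and 4.01 to 4.79 CPM, and cardiomyocyte markers at 38.8 to 60.1 and 27.6 to 40.8 CPM.

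Of 11 further glucose carriers, 6 were tested, 1 was higher and 2 were lower, where 40.7% of all genes tested passed. The median log2 fold change was -0.25, against -0.001 over all genes tested. *Slc2a13*, a carrier of myo-inositol and protons, rose by 0.43 (SE 0.13, edgeR adjusted p = 0.0289). *Slc2a8*, which encodes the intracellular GLUT8, fell by 0.27 (SE 0.07, edgeR adjusted p = 0.0206), and *Slc50a1*, the mammalian SWEET sugar carrier, fell by 0.24 (SE 0.06, edgeR adjusted p = 0.0161). These differences are all smaller than that of *Slc2a1*. None of the 3 calls held without library Vb (0.31, -0.25 and -0.21), *Slc2a8* and *Slc50a1* did not pass without library Va (-0.26 and -0.22) or library Ta (-0.20 each), and *Slc2a13* did not pass without Tb or Tc (0.42 and 0.37). *Slc2a2*, *Slc2a5*, *Slc5a1* and *Slc5a2* were too low to be tested, and *Slc2a7* had no row.

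Of 15 further monocarboxylate carriers and partners, 9 were tested, 2 were higher and 4 were lower, where 40.7% of all genes tested passed. Their median log2 fold change was -0.07. *Slc16a10*, an aromatic amino acid carrier, fell by 0.85 (SE 0.13, edgeR adjusted p = 0.00145), and *Slc16a9*, with 17.0% of its windows shared with other transcripts, fell by 0.71 (SE 0.10, edgeR adjusted p = 0.000938). *Emb*, described above, also fell. *Slc16a13* at 0.70 (edgeR adjusted p = 0.0237) and the sodium-coupled lactate carrier *Slc5a8* at 1.28 (edgeR adjusted p = 0.00565) are named after their values were seen, and *Slc5a8* had only 6 to 19 reads per library. The call of *Slc16a13* was lost without Va or Vb (0.52 and 0.72) and without Ta or Tc (0.75 and 0.58). The subunits of the mitochondrial pyruvate carrier, *Mpc1* at 0.10 (SE 0.08, 24.8% of windows shared) and *Mpc2* at 0.13 (SE 0.05), did not pass. *Slc16a5*, *Slc16a11*, *Slc16a12* and *Slc16a14* were too low to be tested, and *Slc16a8* and *Slc5a12* had no row.

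Of 13 enzymes that trap glucose or decide the use of pyruvate, 11 were tested, 2 were higher and 3 were lower. Their median log2 fold change was -0.15, and 40.7% of all genes tested passed. *Hk2*, the inducible hexokinase, stood at 61.3, 61.8 and 79.5 CPM with vehicle and 100.6, 92.1 and 121.2 CPM with TGFβ, with Vc and Tc again the highest, and rose by 0.63 (SE 0.13, edgeR adjusted p = 0.00598). *Ldhb*, the lactate dehydrogenase subunit of oxidative tissues, fell by 0.96 (SE 0.24, edgeR adjusted p = 0.0148), a call lost without library Tb (-0.87, adjusted p = 0.0534), and shares 16.7% of its windows with other transcripts. *Pdk4*, which inhibits pyruvate dehydrogenase, fell by 0.59 (SE 0.09, edgeR adjusted p = 0.00200), and *Pdp1*, the phosphatase that activates the same enzyme, fell by 0.41 (SE 0.07, edgeR adjusted p = 0.00269). The other gene that rose was *Ldha*, named after its values were seen, at 0.29 (SE 0.08, edgeR adjusted p = 0.0270), and it did not pass without Va or Vb (0.31 and 0.23) or library Tc (0.20). *Ldha* over *Ldhb* in TPM was 11.1, 19.4 and 15.6 with vehicle and 27.0, 37.2 and 41.8 with TGFβ, and *Hk2* over *Hk1* was 0.651 ± 0.0905 and 0.956 ± 0.110 (SD, n = 3 each). *Hkdc1* and *Ldhd* were too low to be tested.

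Of 10 genes that handle the protons and bicarbonate which accompany lactate transport, 6 were tested, 2 were higher and 1 was lower. Across all genes tested 40.7% passed, and the median log2 fold change of these 6 was 0.13. The bicarbonate cotransporter *Slc4a4* fell by 0.69 (SE 0.13, edgeR adjusted p = 0.00411), and its relative *Slc4a7* rose by 0.49 (SE 0.07, edgeR adjusted p = 0.00118). The anion exchanger *Slc4a2* rose by 0.18 (SE 0.06, edgeR adjusted p = 0.0409), but did not pass with upper quartile scaling (0.16) or without Vb or Vc (0.19 and 0.14) or Ta or Tb (0.15 and 0.17). Its exons overlap *Fastk* on the opposite strand, which held 7028 counts. The carbonic anhydrases *Car2*, *Car4*, *Car9* and *Car14* were too low to be tested.

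Of 11 genes that direct glucose carriers to or from the surface or sense glucose, 10 were tested, 3 were higher and 4 were lower. Their median log2 fold change was -0.09, and 40.7% of all genes tested passed. *Tbc1d1*, a Rab GTPase-activating protein that holds back GLUT4 vesicles, was at 36.2, 36.5 and 38.6 CPM with vehicle and 71.8, 69.2 and 73.6 CPM with TGFβ, and rose by 0.95 (SE 0.04, edgeR adjusted p = 8.73e-06). Its relative *Tbc1d4* fell by 0.48 (SE 0.11, edgeR adjusted p = 0.00904). *Txnip*, whose product draws GLUT1 from the surface, fell by 0.39 (SE 0.04, edgeR adjusted p = 0.000173), with 16.7% of its windows shared with other transcripts. *Gipc1*, whose product binds the tail of GLUT1, rose by 0.24 (SE 0.05, edgeR adjusted p = 0.00899). Of the 10 genes tested, *Tbc1d1* thus changed the most. *Slc2a4*, the gene of GLUT4, had 8 to 28 reads per library and a log2 fold change of -0.77 (SE 0.31) that did not pass. *Mlxipl* was too low to be tested.

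The genes whose pattern over the 6 libraries was closest to that of a transporter were sought among the 10372 genes that averaged 5 CPM or more, by the root mean square difference of log2 CPM taken relative to the vehicle mean. Closest to *Slc16a3* were *Whrn* (0.153), *Heyl* (0.176) and *Pi16* (0.198), where the median over all genes was 0.92. For *Slc2a1* they were *Ttc9* (0.066), *AU020206* (0.067) and *Ntn4* (0.080), where the median was 0.41, and for *Slc2a10* *C2cd2l* (0.015), *Kdelr1* (0.017) and *Cnbp* (0.017), where it was 0.16. *Heyl*, for example, stood at -0.09, -0.08 and 0.17 with vehicle and 1.08, 1.12 and 1.53 with TGFβ on this log2 scale, and *Slc16a3* at -0.14, -0.31 and 0.45 with vehicle and 1.00, 0.98 and 1.69 with TGFβ. All points share the same libraries, and the likeness is a description of these 6.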

How the data were processed

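Total RNA of 3 vehicle and 3 TGFβ cultures was made into stranded mRNA libraries and sequenced from one end over 75 bases. The authors aligned reads to mm10 and used DESeq2, and the aligner, counter, annotation and strand setting are not given in the sources used here. The deposited table gives each library's count of reads on each gene, in whole numbers that were not normalized. Its other columns, the authors' mean, fold change and p-values, were not used, and 0 columns of per-sample values were left out. The paper's methods call them 3 biological replicates, and the labels number 3 samples in each group without naming separate animals. The p-values thus measure the spread between these samples, and the count columns carry no replicate number.

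From the counts, edgeR 4.0.16 (R 4.3.3) gave TMM factors, CPM, the filter (filterByExpr, minimum count 10) and the quasi-likelihood test of TGFβ against vehicle, with Benjamini-Hochberg adjustment and a threshold of 0.05. DESeq2 1.42.0 and limma 3.58.1 served as alternatives, and the steps were tested on simulated data. TPM used exon lengths of GENCODE M21 (99.79% of identifiers matched), without TMM factors, and serve mainly to compare levels between genes. Where TPM are set between the groups, they lack the TMM scaling of the CPM and were not tested. Replicate pairs differed beyond sampling noise (chi-square per gene 7.95 to 27.1), so none was counted as a duplicate, and the biological coefficient of variation was 7.97%. For a single gene, an exact two-sided permutation test of 3 against 3 libraries cannot go below p = 0.1, and none is given.

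The genes described and the further lists were chosen with earlier results of these data known. Of each further list, the 4 called genes with the largest change among those averaging 1 CPM or more were to be named, and so were genes the filter removed. For *Slc16a3*, *Slc2a1* and *Slc2a10* the 3 genes of most similar pattern were named. Other genes named serve as markers, neighbours in the order of levels, overlapping genes or partners in a ratio or complex (*Hk1*, *Mpc1*, *Mpc2*), or are said to be chosen after their values were seen. A result that these rules take in is not reported here, and the counts of the lists are complete.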

Additional observations from a re-analysis of the deposited data

How the results depend on the processing

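Over 12 alternatives (DESeq2 size factors, upper quartile scaling, DESeq2, limma-voom, no filter on low counts, at least 1 CPM in 3 libraries, and each of the 6 libraries left out), the log2 fold change of *Slc2a1* ranged from 0.40 to 0.64, that of *Slc16a1* from -0.57 to -0.40 and that of *Slc16a3* from 0.95 to 1.50. At an adjusted p of 0.01, 3595 genes passed instead of 5828, with 1 of the 9 transporters, 0 further glucose carriers and 3 enzymes. With a log2 fold change beyond 1, 971 genes passed, with 1 of the 9 transporters, 0 further glucose carriers, 3 further monocarboxylate carriers, 0 enzymes, 0 proton and bicarbonate genes and 0 trafficking genes. With 1 library left out, 3 to 5 of the 9 transporters and 0 to 3 further glucose carriers passed, beside 4489 to 5481 of all genes. The log2 fold change of *Bsg* turned to -0.0014 with DESeq2 size factors, -0.02 with upper quartile scaling and -0.0047 with at least 1 CPM in 3 libraries, and with 1 library left out it lay between -0.05 and 0.04. The cause was not tested. Single genes kept their direction and their side of the threshold in 324 of their values, were no longer past it in 25, newly past it in 2 and turned in 6. No paired analysis was possible because the count columns carry no replicate numbers, and a block on the order of the columns, which names no sample, was not fitted. Depth limits *Slc2a4*, *Slc2a12*, *Slc16a6* and *Slc5a8*, which had under 50 reads in each library.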
